A study of Mus musculus with 24 samples.

Results

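RNA of the kidney inner medulla was compared between 7 female saline libraries (FS1 to FS7) and 6 male saline libraries (MS1 to MS6) for genes on chromosomes 1 to 19. The C57BL/6 mice of both groups, 9 to 10 weeks old, received 1 intraperitoneal injection of saline (100 µl), and the tissue was collected 72 h later. The study asked how the inner medulla responds to cisplatin in each sex. Its 24 libraries also include 5 female (FC1 to FC5) and 6 male (MC1 to MC6) cisplatin libraries from mice of the same strain and age. Those mice were given cisplatin in saline at 15 mg/kg by the same route and sampled at the same time. They are used here only to look at the same contrast of the sexes in other libraries. A gene entered the comparison if it had at least 10 counts in at least 6 of the 13 saline libraries, which left 16377 autosomal genes of the 55416 identifiers in the table. Of these, 14275 reached 10 counts in all 13 libraries. The 234 autosomal genes that reached it in exactly 6 libraries had a median mean count of 9.77, and the 275 that reached it in 5 and stayed out had 8.69. Nothing in the labels says that the libraries of a group are different mice. The p-values therefore cover the spread among libraries, which may be technical. The strain is given as C57BL/6 without a substrain.

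The inner medulla, the deepest zone of the kidney, is built from collecting ducts, thin limbs of the loops of Henle, capillaries and interstitial cells in a hypertonic surrounding. Proximal tubules lie in the cortex and in the outer stripe of the outer medulla, where they take back filtered solutes and secrete organic ions. In the mouse the proximal tubule is known as the most sexually dimorphic segment of the nephron. Androgen action raises some of its transporters and cytochrome P450 enzymes in males, and another set of its genes is higher in females. Lrp2 encodes megalin, the endocytic receptor of its brush border, and Slc34a1 encodes the sodium-phosphate cotransporter of the same membrane.

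The 7 FS libraries held 18084242 to 26109251 counts each and the 6 MS libraries 18188482 to 24721161. Levels are given in CPM, counts scaled to a common library size with TMM factors. The collecting duct water channel gene Aqp2 averaged 6516 ± 1621 CPM in FS and 6634 ± 785 CPM in MS (SD, n = 7 and 6). Collecting duct RNA was thus abundant in both sexes, which does not by itself place the tissue in the inner medulla. The segment of the loop that lies outside the inner medulla was also present: a thick ascending limb score, the mean log2 CPM of 9 genes that include Umod and Slc12a1, ranged from 6.67 to 8.99 in FS and from 7.45 to 9.14 in MS. FS6, FS1 and MS2 were the libraries with the lowest scores. Umod alone averaged 2751 ± 1948 CPM in FS and 4435 ± 2201 CPM in MS, and it exceeded Aqp2 in FS5 and MS4. Principal components were computed from the 500 autosomal genes of highest variance. The first component (33.0% of the variance) had Umod and Egf among its leading genes. The second component (22.8%) separated the sexes, with FS libraries between 3.78 and 15.97 and MS libraries between -14.46 and -4.91. Of the 22 genes described below, 21 were among those 500.

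Between FS and MS libraries, 22 autosomal genes differed at an adjusted p under 0.05 (edgeR quasi-likelihood test with Benjamini-Hochberg adjustment over 16961 identifiers), which is 0.134% of the 16377 tested. Of these, 6 were higher in FS (0.0366%) and 16 were lower in FS (0.0977%). All 22 differed by at least 2-fold, while the median log2 fold change of all autosomal genes was 0.004. The CPM ranges of FS and MS did not overlap for 18 of the 22, against 52 genes (0.318%) of all those tested. The 22 were picked by a test on these same libraries, so their lack of overlap is no separate evidence. At an unadjusted p under 0.05 there were 1108 genes. On the sex chromosomes, which are not described here, 4 X-linked and 5 Y-linked genes passed. Of the 22 genes, 7 fall outside the rule for named genes and are named because the set is small, after their values were seen: Ugt1a2, 9030619P08Rik, Slc22a22, Slc22a28, Tmigd1, Nat8 and Akr1c21. Ugt1a2, Slc7a12 and 9030619P08Rik reached 10 counts in FS libraries only, and Slc22a22 and Cyp2j13 in MS libraries only, so these 5 passed the count minimum through the group in which they were high. Fitted fold changes of genes near 0 counts in a group depend on the small prior count of the fit. The number of called genes was 62 in DESeq2 and 44 without the count minimum. FS5, FS6 and FS7 stood apart from the other FS libraries in a set of processed pseudogenes and in the protein-coding genes Elavl4 and Tbr1. These are described with the cisplatin libraries, and none of the 22 genes is among them. Without these 3 libraries 14 genes passed, 6 higher and 8 lower in FS, 13 of them among the 22. Leaving out FS2 or FS6 raised the number of genes higher in FS to 11 and 12.

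Slc7a12 (ENSMUSG00000039710, chr3:14480697-14505830 in mm10) encodes an amino acid transporter that is known in mouse kidney for higher expression in females. In FS it lay at 2.38 CPM in the lowest library, 5.43 CPM at the median and 18.5 CPM in the highest. In MS it lay between 0 and 0.288 CPM, with 15 counts in all 6 libraries together. No MS library came near the lowest FS library, and the log2 fold change was 5.87 ± 0.66 (SE, adjusted p of 0.000314, edgeR). Ugt1a2, a UDP-glucuronosyltransferase gene whose product attaches glucuronic acid to lipophilic compounds, had 16 to 59 counts in FS libraries (0.613 to 2.61 CPM). In MS libraries it had 0 to 2 counts, with 0 in 3 of the 6. Its log2 fold change of 5.64 ± 0.53 had the smallest adjusted p (4.07e-05, edgeR). Its span on chromosome 1 overlaps 10 other genes, most of them members of the same family that share its last exons, so reads may have been divided between them in ways the table does not show.

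The other genes higher in FS were low in males. Rdh16f2, of a family of dehydrogenases that act on retinol and steroids, had a lowest, median and highest level of 2.22, 4.31 and 5.95 CPM in FS, against 0.37, 0.729 and 0.922 CPM in MS. Its log2 fold change was 2.54 ± 0.27 (adjusted p of 0.000199, edgeR). Prlr, the prolactin receptor gene, lay at 1.65 to 9.93 CPM in FS and at 0.212 to 0.976 CPM in MS (2.76 ± 0.41, adjusted p of 0.00419, edgeR). Both genes had every FS library above every MS library. For Prlr the highest library, FS4, stood well apart from the next at 3.61 CPM, and the log2 fold change without FS4 was the lowest of those with 1 library left out, at 2.36. The transcribed pseudogene 9030619P08Rik lay at 0.862 to 2.28 CPM in FS, and in MS at 0 to 0.264 CPM, with 0 counts in 2 of the 6 libraries (3.60 ± 0.50, adjusted p of 0.00255, edgeR).

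Ren1 encodes renin, the protease that starts the angiotensin cascade and is released by granular cells of the glomerular arterioles in the cortex. Its levels were 6.05, 2.35, 5.01, 9.65, 4.39, 3.49 and 2.98 CPM in FS1 to FS7 and 0.434, 0.279, 0.659, 0.673, 1.06 and 2.17 CPM in MS1 to MS6. The lowest FS library lay just above the highest MS library. Its log2 fold change was 2.48 ± 0.43 (adjusted p of 0.02, edgeR). Without FS3, MS1, MS3 or MS4 the adjusted p was 0.0507, 0.0723, 0.075 and 0.0865 (range over all alternatives 9.99e-07 to 0.117). Of the 9 tested genes of the renin-angiotensin list, Ren1 was the 1 that passed in edgeR. Their median log2 fold change was -0.003. The converting enzyme gene Ace (0.08 ± 0.20), the substrate gene Agt (0.27 ± 0.36) and the receptor gene Agtr1a (-0.20 ± 0.32) did not pass.

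Of the genes lower in FS, 5 encode membrane transporters. Slc7a13 (ENSMUSG00000041052, chr4:19818725-19842218 in mm10) encodes a cystine and acidic amino acid transporter of the last part of the proximal tubule. It lay at 0.639, 0.192, 0.313, 0.348, 1.11, 0.92 and 2.40 CPM in FS1 to FS7 and at 23.8, 16.7, 46.4, 21.1, 5.71 and 15.2 CPM in MS1 to MS6. The highest FS library, FS7, stayed below the lowest MS library, MS5, and the log2 fold change was -4.66 ± 0.52 (adjusted p of 0.000309, edgeR). Slco1a1, an organic anion transporter gene of the brush border that depends on androgen in mouse kidney, had 0 counts in 3 of the 7 FS libraries and at most 0.415 CPM (FS7). In MS it lay between 0.507 CPM (MS5) and 7.46 CPM (MS3), and the log2 fold change was -5.11 ± 0.74 (adjusted p of 0.00393, edgeR). The groups of both transporters did not overlap, although FS7 and MS5 came close for Slco1a1. Slc22a30, Slc22a28 and Slc22a22 belong to the organic ion transporter family, and the product of Slc22a22 is known in mouse kidney as a prostaglandin transporter. Their median levels were 0.445, 0.298 and 0.192 CPM in FS, against 3.36, 2.51 and 1.00 CPM in MS. Their log2 fold changes were -3.25 ± 0.43, -3.19 ± 0.51 and -2.51 ± 0.32. Over all alternatives the adjusted p reached 0.0921 for Slc22a30 and 0.0993 for Slc22a28, which had 0.0927 with Slc34a1 as a covariate, and stayed at or below 0.0244 for Slc22a22. The ranges of Slc22a28 overlapped, since FS7 had 0.705 CPM and MS5 had 0.507 CPM. Slc22a30 and Slc22a28 are close relatives on chromosome 19, and reads shared between them are uncertain. Tmigd1, which encodes an immunoglobulin-domain adhesion protein of kidney and gut epithelium, lay at 1.20 to 2.55 CPM in FS and 2.12 to 15.2 CPM in MS, with overlapping ranges. Its log2 fold change was -1.99 ± 0.34 (adjusted p of 0.0171, edgeR; 0.0568 without FS3, range over all alternatives 1.25e-06 to 0.238).

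Enzymes made up most of the rest. Among 14 tested cytochrome P450 genes, 4 were lower in FS and 0 higher in edgeR, with 7 lower and 1 higher at an unadjusted p under 0.05 and 4 lower in DESeq2. Cyp2e1, an oxidase of ethanol and other small molecules, had a lowest, median and highest level of 0.256, 0.579 and 1.53 CPM in FS, against 4.10, 6.83 and 22.2 CPM in MS (-3.62 ± 0.45, adjusted p of 0.00104). Cyp2j13 had 0 counts in 4 of the 7 FS libraries and at most 0.29 CPM, and lay at 0.553 to 4.77 CPM in MS (-4.93 ± 0.69). Cyp4b1 and the oxysterol hydroxylase gene Cyp7b1 were expressed in both sexes, with medians of 14.1 and 7.06 CPM in FS and of 31.2 and 16.7 CPM in MS. Their log2 fold changes were -1.50 ± 0.22 and -1.39 ± 0.22. All 4 separated the sexes without overlap. The adjusted p of Cyp7b1 was 0.0753 with Slc34a1 as a covariate, and Cyp7b1 and Cyp4b1 were not called without FS5 to FS7 (ranges over all alternatives 2.78e-07 to 0.179 and 5.3e-09 to 0.107). That of Cyp2e1 ranged up to 0.068.

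Acsm2 and Acsm3 encode mitochondrial synthetases that attach coenzyme A to medium-chain fatty acids. Acsm2 lay at 12.3, 3.65, 5.21, 5.68, 8.12, 3.83 and 12.2 CPM in FS1 to FS7 and at 66.8, 33.4, 92.3, 32.9, 16.1 and 28.4 CPM in MS1 to MS6 (-2.63 ± 0.40, adjusted p of 0.00542, edgeR). Acsm3 lay at 0.353 to 2.03 CPM in FS and 2.72 to 36.8 CPM in MS (-4.41 ± 0.54, adjusted p of 0.000759, edgeR). Neither overlapped between the sexes, though FS7 (2.03 CPM) came near MS5 (2.72 CPM) for Acsm3. Acsm2 and Acsm3 are near relatives, and Acsm3 overlaps Eri2 on the other strand, so the division of reads is uncertain for both. The glucuronosyltransferase gene Ugt2b38 (-3.08 ± 0.47), the cysteine conjugate acetyltransferase gene Nat8 (-2.48 ± 0.43), the antiplasmin gene Serpinf2 (-1.81 ± 0.26) and the hydroxysteroid dehydrogenase gene Akr1c21 (-1.73 ± 0.32) were lower in FS as well. The adjusted p of Serpinf2 was 0.058 with Slc34a1 as a covariate (range over all alternatives 2.92e-09 to 0.144). Those of Acsm2 and Ugt2b38 were above 0.05 without FS5 to FS7 (ranges 1.46e-06 to 0.0793 and 5.35e-09 to 0.107). Nat8 and Akr1c21 overlapped between the sexes at MS5, with 0.599 and 4.01 CPM there against highest FS values of 0.667 and 4.60 CPM. The adjusted p of Nat8 (0.0196) was 0.0509, 0.0638 and 0.0646 without FS4, MS1 or MS3 (range over all alternatives 1.23e-05 to 0.331). That of Akr1c21 (0.0356) lay between 0.0509 and 0.108 when any 1 of 11 libraries was left out, and passed without MS2 or MS5 (range over all alternatives 1.23e-05 to 0.502). In all 16 genes lower in FS the lowest MS library was MS5, and the highest was MS3 in 12 and MS1 in 4.

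**Figure D1:**
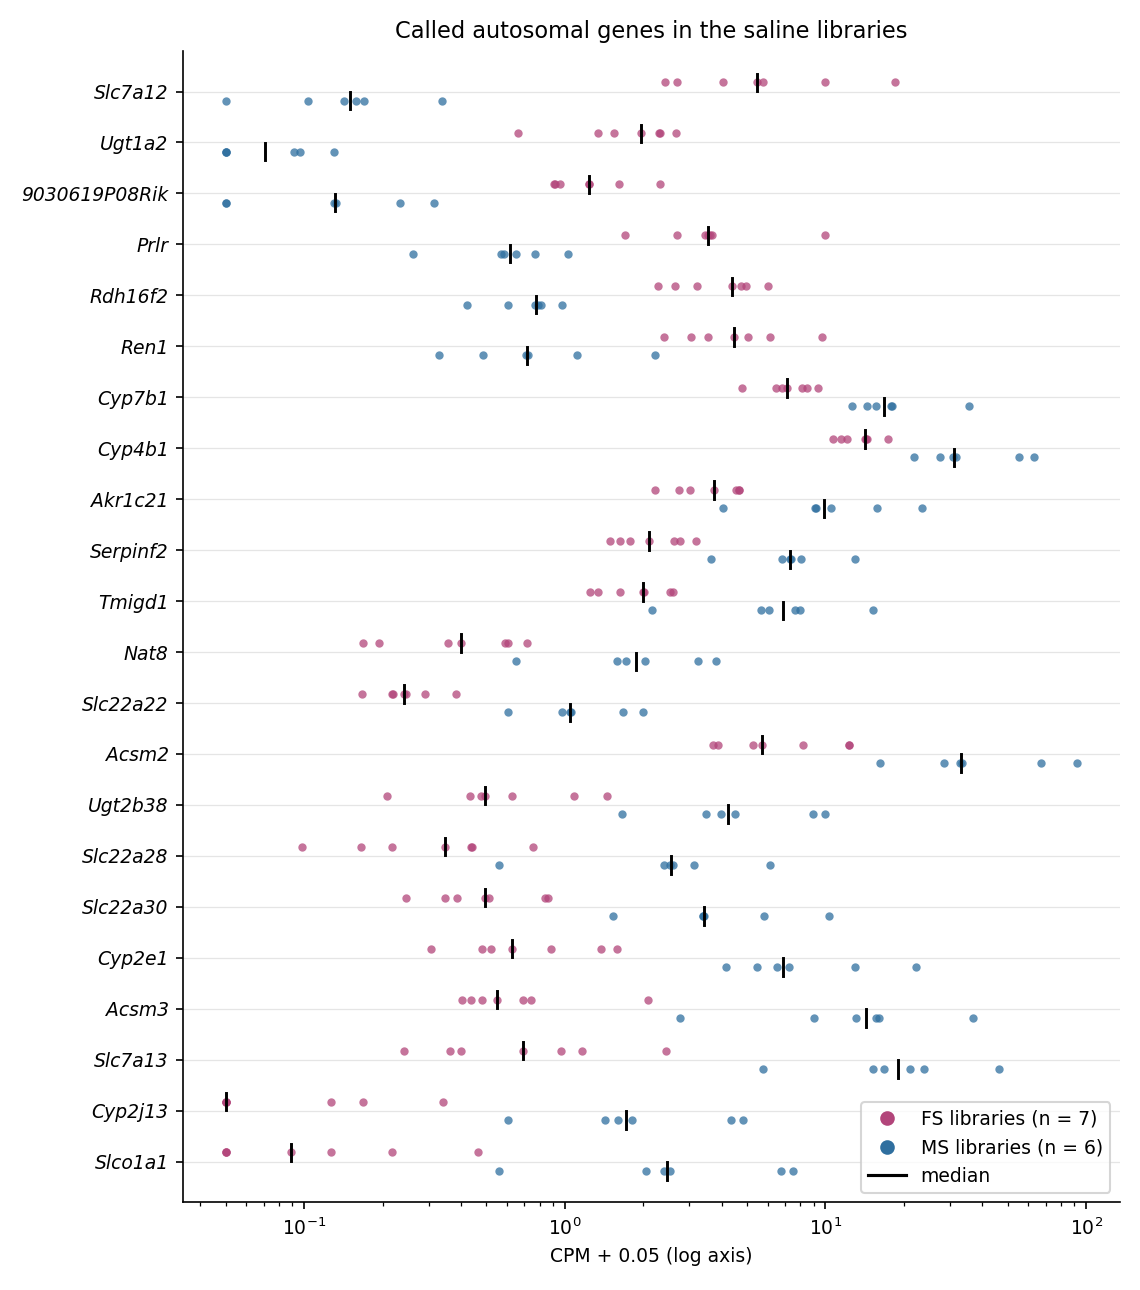
Level of the 22 called autosomal genes in each saline library, as CPM + 0.05 on a log axis, with FS libraries above MS libraries for each gene and a black tick at the group median. Points at 0.05 are libraries with 0 counts. The groups lie apart for 18 genes and overlap for Akr1c21, Tmigd1, Nat8 and Slc22a28.

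Of the 22 called genes, 18 had 1 to 3 promoter windows of 250 bases before to 50 bases after a start (RefSeq, build GRCm38.p6), 6 windows for the 4 genes higher in FS and 19 for the 14 lower. A gene counts as holding a motif if any of its windows does. Each window was searched on both strands for the arm AGAACA of the androgen response element, for the whole element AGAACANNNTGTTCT, which contains that arm, for the oestrogen response element GGTCANNNTGACC and for GTTAAT, an arm of the site of HNF1, a transcription factor of proximal tubule cells. The last motif was added after the values were seen. The arm AGAACA was found for 2 of the 4 genes higher in FS and for 5 of the 14 lower (35.7%), against 15.1% of the 11564 tested autosomal genes with a promoter. The whole androgen and oestrogen elements were found for 0 of the 18, against 0.00865% and 0.0259% of all genes with a promoter. GTTAAT was found for 3 of the 14 genes lower in FS (21.4%) and for 5.89% of all. Of 110 genes with a promoter whose level rose with the proximal tubule score defined below, 26 (23.6%) held it. The arm AGAACA was found for 27 of these 110 (24.5%), so it too was more frequent there than among all genes. The 250 bases before the start of the window with the motif are shown for the 3 lower genes with GTTAAT and for Cyp4b1, which has AGAACA, with the motif letters on either strand in capitals. These matches describe the letters and not binding of a factor. The windows are Acsm2 at chr7:119554090-119554339 on the plus strand, Nat8 at chr6:85832280-85832529 on the minus strand, Akr1c21 at chr13:4573825-4574074 on the plus strand and Cyp4b1 at chr4:115647722-115647971 on the minus strand.
Acsm2: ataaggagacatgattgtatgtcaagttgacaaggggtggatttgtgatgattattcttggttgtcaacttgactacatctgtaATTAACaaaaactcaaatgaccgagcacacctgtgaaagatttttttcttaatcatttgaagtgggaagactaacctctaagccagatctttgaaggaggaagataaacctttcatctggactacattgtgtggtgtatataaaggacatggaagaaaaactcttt
Nat8: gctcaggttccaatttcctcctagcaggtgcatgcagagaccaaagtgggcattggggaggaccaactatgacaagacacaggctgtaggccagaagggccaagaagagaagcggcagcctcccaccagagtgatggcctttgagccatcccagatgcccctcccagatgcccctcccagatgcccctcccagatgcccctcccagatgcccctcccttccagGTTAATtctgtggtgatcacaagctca
Akr1c21: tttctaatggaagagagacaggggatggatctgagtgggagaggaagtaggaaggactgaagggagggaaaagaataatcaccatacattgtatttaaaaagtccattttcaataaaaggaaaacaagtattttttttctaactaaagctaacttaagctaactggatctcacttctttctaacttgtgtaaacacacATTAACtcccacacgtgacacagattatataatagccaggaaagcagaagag
Cyp4b1: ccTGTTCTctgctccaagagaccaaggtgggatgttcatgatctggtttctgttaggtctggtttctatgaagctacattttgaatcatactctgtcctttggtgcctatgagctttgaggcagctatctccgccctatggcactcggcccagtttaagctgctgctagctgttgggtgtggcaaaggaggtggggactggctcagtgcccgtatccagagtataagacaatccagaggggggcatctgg
The motif ended 160, 21 and 46 bases before the start in Acsm2, Nat8 and Akr1c21, and 242 bases before it in Cyp4b1.

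Proximal tubule transcripts were present in every saline library, and their amount varied between libraries of the same sex. Lrp2 lay at 29.4, 23.7, 36.1, 94.8, 60.6, 15.3 and 36.9 CPM in FS1 to FS7 and at 35.7, 18.4, 49.2, 20.7, 8.11 and 17.9 CPM in MS1 to MS6. Slc34a1 lay at 35.7, 19.8, 23.4, 27.7, 35.5, 15.5 and 30.4 CPM in FS1 to FS7 and at 85.8, 44.6, 78.6, 34.6, 18.8 and 32.6 CPM in MS1 to MS6. Both genes overlapped between the sexes and did not pass the test. The log2 fold change of Lrp2 was 0.76 ± 0.42 (adjusted p of 0.814, edgeR), and that of Slc34a1 was -0.87 ± 0.30 (adjusted p of 0.572). The difference of their log2 CPM, Slc34a1 minus Lrp2, ran from -1.77 to 0.28 in FS and from 0.68 to 1.27 in MS, without overlap. That measure was noticed after the values were seen and was given no test, and its size for a single library also reflects the lengths of the genes. In bulk tissue, fewer proximal tubule cells and less RNA per cell cannot be told apart.

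**Figure D2:**
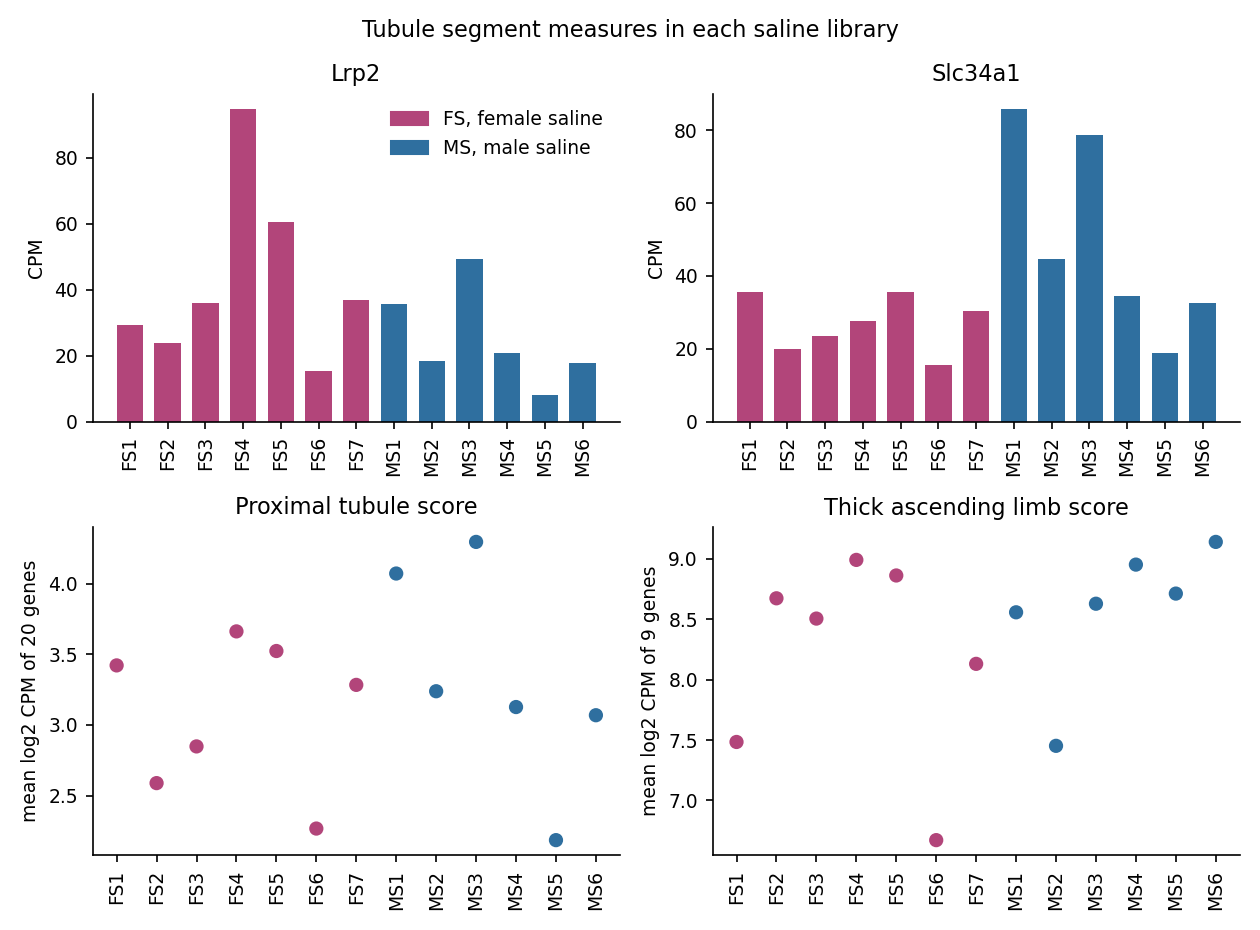
Lrp2 and Slc34a1 in CPM (bars) and the proximal tubule and thick ascending limb scores (points, mean log2 CPM of 20 and 9 genes) in each saline library, FS left of MS. Lrp2 was highest in FS4 (94.8 CPM) and Slc34a1 in MS1 (85.8 CPM), and both scores overlap between the sexes.

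A proximal tubule score, the mean log2 CPM of 20 genes of the segment, ran from 2.27 to 3.66 in FS and from 2.18 to 4.30 in MS. All 20 of these genes were detected. MS3 and MS1 had the highest scores and MS5 the lowest, which is the order of extremes seen in the 16 genes lower in FS. Of the 20 genes, 1 was lower in FS (Acsm2) and 0 were higher in edgeR, with 3 and 0 at an unadjusted p under 0.05, and 1 and 0 in DESeq2. Their median log2 fold change was -0.22, with 16 of 20 below 0. The transcription factor gene Hnf4a had -0.46 ± 0.39, and Pck1, the gluconeogenic enzyme gene, had -0.02 ± 0.34. These 2 genes, Ace, Agt, Agtr1a, Kap, Odc1, Cyp2a4 and Esr1 lie outside the rule for named genes and were chosen after their values were seen.

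The lists of proximal tubule genes known to differ between the sexes were drawn up with earlier results of these data known, so their counts are a description. Of 14 tested male-high genes 8 were lower in FS, and the median log2 fold change was -1.95. The 6 that did not pass included Kap, the kidney androgen-regulated protein gene, at 160 ± 78.0 CPM in FS and 289 ± 164 CPM in MS (SD, n = 7 and 6; -0.85 ± 0.36). Odc1, which encodes the first enzyme of polyamine synthesis, had -0.25 ± 0.19. Of 6 tested female-high genes 2 were higher in FS (Slc7a12 and Prlr), with a median of 1.15. Cyp2a4 in that list had -0.81 ± 0.42 and did not pass.

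When the slope of each gene on the proximal tubule score was fitted together with sex, 135 autosomal genes (0.824%) had a slope past the threshold, and all 135 slopes were positive. There were 0 negative calls in edgeR and 341 negative slopes at an unadjusted p under 0.05. The 17 score genes among them are part of the score, which leaves 118 others. The slopes of these 118 genes had a median of 1.06 and ran from 0.31 to 1.84 (log2 per log2 unit of score). Genes outside the proximal tubule lists with small p-values included Ugt3a2, a glycosyltransferase gene (slope 1.30 ± 0.09, adjusted p of 3.37e-06, edgeR). Cyp2j5 (1.27 ± 0.11), the flavin monooxygenase gene Fmo1 (0.94 ± 0.08), the tyrosine catabolism gene Hgd (1.22 ± 0.11) and the urate transporter gene Slc22a12 (1.11 ± 0.12) had like slopes. All 135 slopes were also positive in FS alone and in MS alone. The 135 genes were picked from these same libraries, so the signs are no separate evidence. Of all tested autosomal genes, 1 passed in FS alone and 51 in MS alone, and 44 of the 51 were among the 135. The count of 135 was 88 without FS5 to FS7, 76 without MS3 and 83 without MS5, the libraries with the highest and lowest scores.

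Among the 22 genes that differed by sex, all had a slope above 0 on the score, against 8378 of the 16377 tested, and 6 passed. In 1 sex alone some slopes were below 0: 4 of the 22 in FS (Cyp2j13, Cyp2e1, Serpinf2 and Slc22a22) and 3 in MS (Ugt1a2, Ren1 and 9030619P08Rik, all low there). The 6 were Slc7a12 (1.64 ± 0.35), Acsm2 (1.15 ± 0.16), Nat8 (1.12), Slc22a30 (1.07 ± 0.21), Akr1c21 (0.96) and Tmigd1 (0.93), of which Acsm2 is itself a score gene. With Lrp2 in place of the score, 127 genes had a called slope, 126 of them positive. The 3 of the 22 among them were Slc7a12 (1.15 ± 0.14), Slc22a30 (0.78 ± 0.17) and Akr1c21 (0.63 ± 0.13). With Slc34a1, 50 genes had a called slope, all positive, and 2 of the 22 were among them, Acsm2 (1.16 ± 0.14) and Akr1c21 (0.92 ± 0.14). Ren1 (0.13 ± 0.37) and 9030619P08Rik (0.16 ± 0.41) had slopes near 0 on the score, with wide SEs that do not show a lack of relation. In FS alone their slopes were 0.88 and 0.62, and in MS alone -0.57 and -0.92, and none of these passed.

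At equal proximal tubule score, 52 genes (0.318%) differed between the sexes, 23 higher (0.14%) and 29 lower (0.177%) in FS. They included all 22 genes called without the score. The 16 lower genes came nearer to 0 and the 6 higher genes moved away from 0. That direction follows from the 22 positive slopes and a lower mean score in FS (3.085) than in MS (3.332). Slc7a13 had -4.22 with the score and -4.66 without, Slco1a1 -4.42 and -5.11, Acsm2 -2.19 and -2.63, and Slc7a12 6.43 and 5.87. The 30 further genes were named after their values were seen. Of these 21 had a called slope on the score. Lrp2 was among them, at 1.13 with the score (adjusted p of 0.00648, edgeR), and Slc34a1 was at -0.50 and did not pass (adjusted p of 0.0708). Both genes belong to the score. With Lrp2 as the covariate instead, Slc34a1 was lower in FS (log2 fold change -1.19 ± 0.21, adjusted p of 0.00786, edgeR, against 0.572 without a covariate). With Slc34a1 as the covariate, Lrp2 had 1.71 ± 0.35 and did not pass (adjusted p of 0.0728). Both fits rest on the same values as the difference of Slc34a1 and Lrp2 given above, so they are no separate evidence for it.

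Further genes higher in FS at equal score included Aadat, an aminotransferase gene of lysine and tryptophan breakdown, at 12.2 to 76.0 CPM in FS and 2.95 to 16.5 CPM in MS (2.25 with the score, 1.93 ± 0.43 without). Akr1c18, a progesterone-reducing dehydrogenase gene, had 2.95 and the organic anion transporter gene Slco1a6 had 1.75 with the score. Genes lower in FS at equal score included the organic anion transporter gene Slc22a6 (-1.15), the urate transporter gene Slc22a12 (-0.96), the export pump gene Abcc2 (-1.17) and Cyp2j5 (-0.80). Without the score these 4 had adjusted p-values of 0.199, 0.328, 0.129 and 0.473 in edgeR, and none passed. In a list of 15 tested organic ion and drug transporter genes, 4 were lower in FS with the score in edgeR. Without the score 1 of the list was lower in edgeR (Slco1a1), 4 in DESeq2 and 7 at an unadjusted p under 0.05. By any of these, 0 of the list were higher. The list does not hold Slco1a6, Slc22a30, Slc22a28 and Slc22a22, which are described above.

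**Figure D3:**
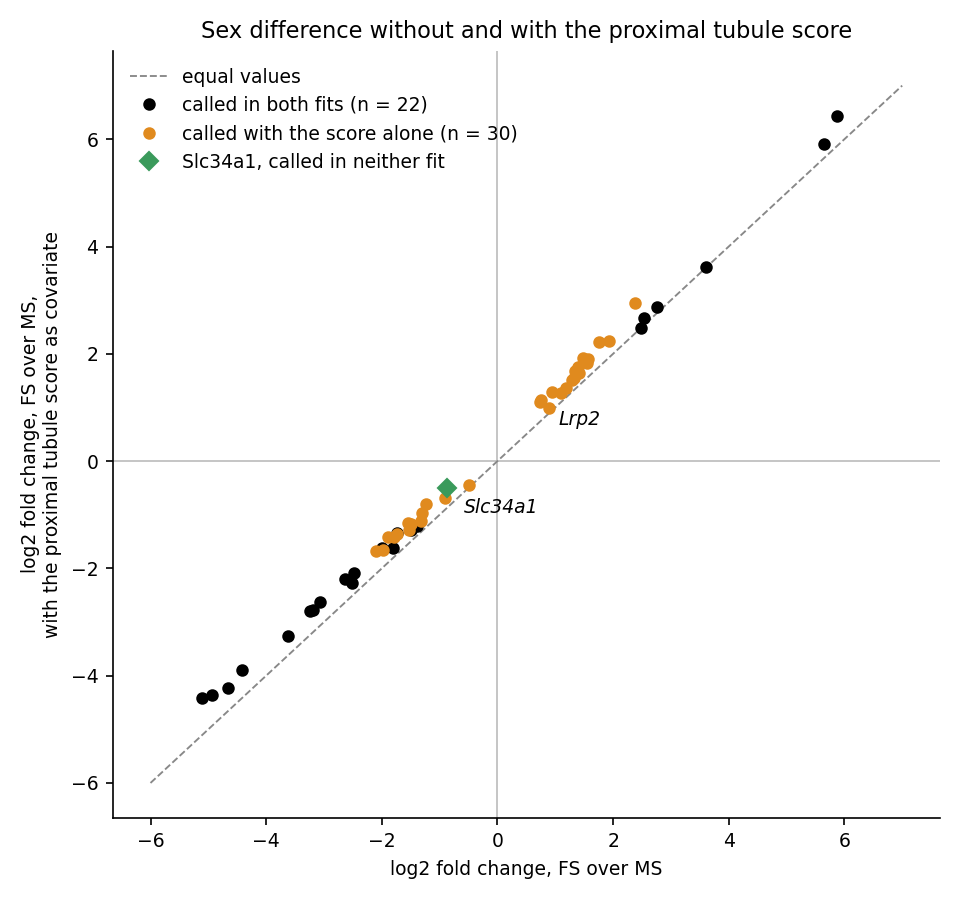
Log2 fold change of FS over MS without (x axis) and with (y axis) the proximal tubule score as a covariate for the 22 genes called in both fits (black), the 30 called with the score alone (orange) and Slc34a1 (green). The points lie on or above the dashed line of equal values. On the log2 scale Lrp2 moved to 1.13 from 0.76 and Slco1a1 to -4.42 from -5.11.

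The choice of the single covariate gene moved the balance of the calls. Without a covariate Lrp2 had a log2 fold change of 0.76 and Slc34a1 of -0.87, neither of them called. A gene with a positive slope therefore moves down in FS with Lrp2 as the covariate and up with Slc34a1. With Lrp2 as the covariate 107 genes passed, 10 higher and 97 lower in FS, and 21 of the 22 were among them. With Slc34a1 as the covariate 32 genes passed, 22 higher and 10 lower in FS. That fit shared 15 genes with the 22. The 7 others were Akr1c21, Cyp7b1, Tmigd1, Serpinf2, Nat8, Slc22a28 and Ren1, of which Akr1c21, Tmigd1, Nat8 and Ren1 had log2 fold changes of -0.92, -1.24, -1.56 and 2.36. Their adjusted p-values lay between 0.058 (Serpinf2) and 0.144 (Tmigd1, edgeR).

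Within each sex, 4 pairs of measures were compared across libraries on the log2 scale, 8 relations in all, chosen after the sex differences were seen. In FS, Slc7a12 followed Lrp2 with a Pearson r of 0.984 (exact permutation test, two-sided p of 0.000397, adjusted 0.00317, n = 7) and a Spearman rho of 0.964 (exact permutation p of 0.00278, adjusted 0.0222). Without the 2 libraries farthest from the median of Lrp2, r was 0.988. In MS the same pair had r of 0.48 (exact permutation p of 0.321, adjusted 0.428, n = 6), where Slc7a12 lay at or below 0.288 CPM. Lrp2 followed Slc34a1 in MS with r of 0.952 (exact permutation p of 0.0125, adjusted 0.05, n = 6), and r was 0.925 without the 2 farthest libraries. In FS that pair had r of 0.643 (exact permutation p of 0.119, adjusted 0.237, n = 7), which fell to -0.095 without the 2 farthest libraries. Slc7a13 and Slc34a1 had r of 0.334 in FS (exact permutation p of 0.462, adjusted 0.528, n = 7) and 0.874 in MS (exact permutation p of 0.0222, adjusted 0.0593, n = 6). The proximal tubule and thick ascending limb scores had r of 0.543 in FS (exact permutation p of 0.21, adjusted 0.337, n = 7) and -0.107 in MS (exact permutation p of 0.85, adjusted 0.85, n = 6). The 1 relation with an adjusted p under 0.05 by Pearson's r was that of Slc7a12 with Lrp2 in FS. The labels give no batch, so no relation could be set within one.

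**Figure D4:**
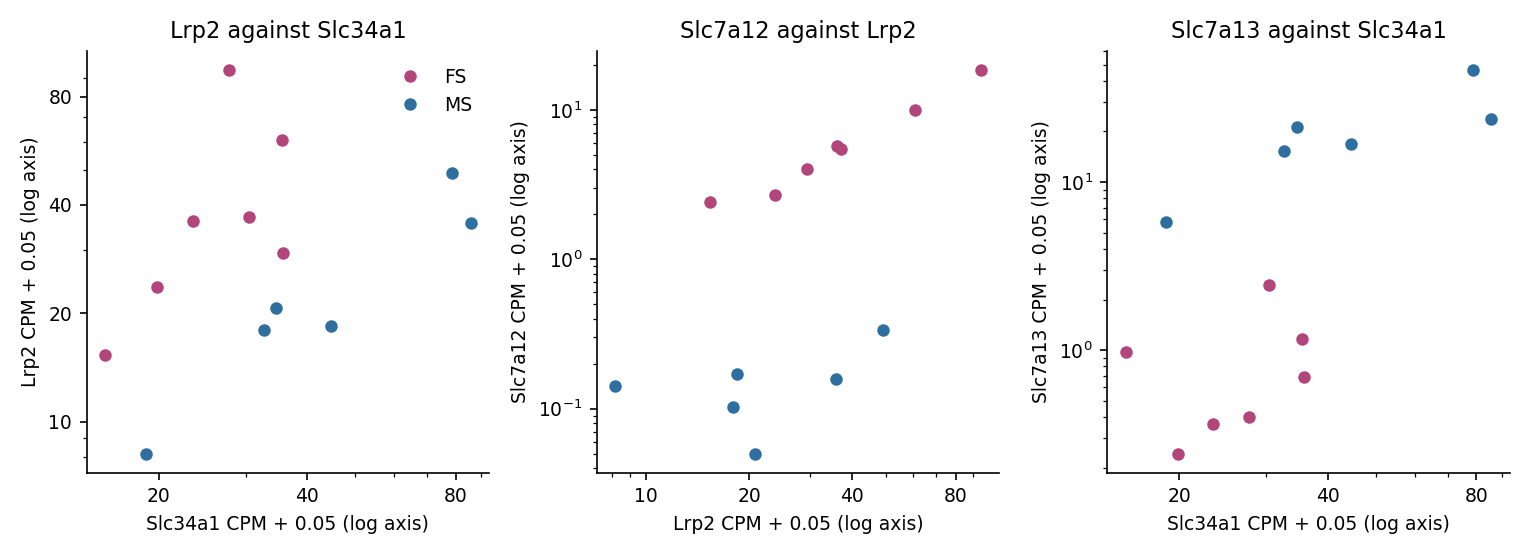
Per-library levels (CPM + 0.05, log axes) of Lrp2 against Slc34a1, Slc7a12 against Lrp2 and Slc7a13 against Slc34a1, with FS and MS libraries as coloured points. Slc7a12 climbs with Lrp2 over the 7 FS libraries (r of 0.984), while the MS libraries stay at or below 0.288 CPM.

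In the lists for cells of the inner medulla and for the thick ascending limb, 0 genes passed in edgeR. This covers the listed genes only and does not show that the sexes are equal. In edgeR 0 of 14 tested principal cell genes passed (2 higher and 0 lower in FS at an unadjusted p under 0.05, and 0 in DESeq2), with a median log2 fold change of 0.006. Likewise 0 of 12 intercalated cell genes passed (0 unadjusted, 0 in DESeq2), with a median of -0.08. For thin limbs it was 0 of 7 (1 lower unadjusted, 0 in DESeq2), with Aqp1, the water channel gene of the descending limb, at 0.12 ± 0.11. For endothelium it was 0 of 14 (3 higher unadjusted, 0 in DESeq2) and for interstitial fibroblasts and matrix 0 of 14 (2 higher unadjusted, 0 in DESeq2). The 9 thick ascending limb genes had a median of -0.40 with 0 called (0 unadjusted, 0 in DESeq2). Aqp2 itself had a log2 fold change of -0.03 ± 0.14.

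Of all 16377 tested genes, 8442 had log2 fold changes above 0 and 7935 below. At an unadjusted p under 0.05, 734 were higher and 374 lower in FS. Genes of a list can vary together between libraries, so the counts below are not of independent genes. The osmoprotection list holds genes of organic osmolyte uptake and synthesis and their regulator NFAT5. Of its 13 tested members 12 had values above 0, with a median of 0.19, and 0 passed in edgeR (5 higher unadjusted, 0 in DESeq2). Akr1b3, the aldose reductase gene that makes sorbitol, averaged 5392 ± 1070 CPM in FS and 4353 ± 629 CPM in MS (SD, n = 7 and 6; 0.31 ± 0.13). The immediate early genes, which respond quickly to stimuli, had 11 of 12 values above 0 and a median of 0.73, with 0 passing in edgeR (5 higher unadjusted, 1 in DESeq2). Btg2 among them did not overlap, at 172 to 391 CPM in FS and 106 to 169 CPM in MS (0.76 ± 0.19, adjusted p of 0.237, edgeR). All 14 interferon response genes had values above 0, with a median of 0.30 and 0 passing in edgeR (8 higher unadjusted, 1 in DESeq2). All 15 nuclear genes of oxidative phosphorylation had values below 0, with a median of -0.20 and 0 passing (0 unadjusted, 0 in DESeq2). Of the 16 receptors and enzymes of the sex steroid list 1 passed, Prlr, and the oestrogen receptor gene Esr1 had -0.22 ± 0.21.

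The cisplatin libraries allow the same contrast of the sexes in libraries that the saline comparison did not use. Between FC and MC 17 autosomal genes (0.104%) passed in edgeR, all 17 higher in FC and 0 lower. Of these 13 are processed pseudogenes, intronless copies of other genes, whose reads cannot be assigned with certainty. Their summed level was 36.4 to 101 CPM in FC and 11.2 to 23.4 CPM in MC. In saline libraries it was 69.2, 71.8 and 84.1 CPM in FS5, FS6 and FS7, 7.91 to 20.7 CPM in FS1 to FS4 and 13.5 to 22.8 CPM in MS. FS5 to FS7 thus stood apart from the other FS libraries for these genes, and did so without overlap for 12 of the 13. The split was not confined to pseudogenes. The protein-coding call Elavl4 lay at 1.56 to 1.65 CPM in FS5 to FS7 and 0.309 to 0.639 CPM in FS1 to FS4. Tbr1 lay at 0.92 to 0.953 and 0.154 to 0.432 CPM. The other protein-coding calls, Stmn2 and Ugt1a2, overlapped. Elavl4, Tbr1 and Stmn2 were named after their values were seen. At an unadjusted p under 0.05, 339 were higher and 271 lower in FC, and DESeq2 called 55 higher and 14 lower. The count of 17 rested on single libraries: it was 6 without FC1, 6 without FC2, 27 without FC4, 8 without FC5, 8 without MC1, 7 without MC2, 7 without MC3, 4 without MC4 and 9 without MC6. Ugt1a2 was the 1 gene called in both contrasts, 4.55% of the saline calls and 5.88% of the cisplatin calls. It averaged 1.88 ± 1.53 CPM in FC and 0.0576 ± 0.0463 CPM in MC (SD, n = 5 and 6; 4.88 ± 0.69, adjusted p of 0.011, edgeR). All 22 saline calls had the same sign between FC and MC, but the share of all tested genes with the same sign is not given here. Of the 22, 19 had an unadjusted p under 0.05 there and 1 passed.

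For 21 of the 22 genes the SE of the log2 fold change was larger in the cisplatin libraries, Ren1 being the exception. Slc7a13 lay at 0.81, 0.309, 0.418, 0.194 and 0.082 CPM in FC1 to FC5 and at 1.12, 0.415, 3.36, 19.4, 23.2 and 4.99 CPM in MC1 to MC6. MC1 and MC2 lay within the range of the FS libraries and MC4 and MC5 within that of the MS libraries (-4.57 ± 1.01, adjusted p of 0.201, edgeR). Slc7a12 averaged 2.50 ± 2.14 CPM in FC and 0.185 ± 0.223 CPM in MC (3.62 ± 0.75, adjusted p of 0.123). Ren1 averaged 1.72 ± 0.48 CPM in FC and 0.877 ± 0.238 CPM in MC (0.97 ± 0.30, adjusted p of 0.775). The difference between the saline and cisplatin sex effects, tested as an interaction over all 24 libraries, passed for 0 autosomal genes in edgeR. The smallest adjusted p was 0.949, and 677 genes, 3 of the 22 among them, had an unadjusted p under 0.05.

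**Figure D5:**
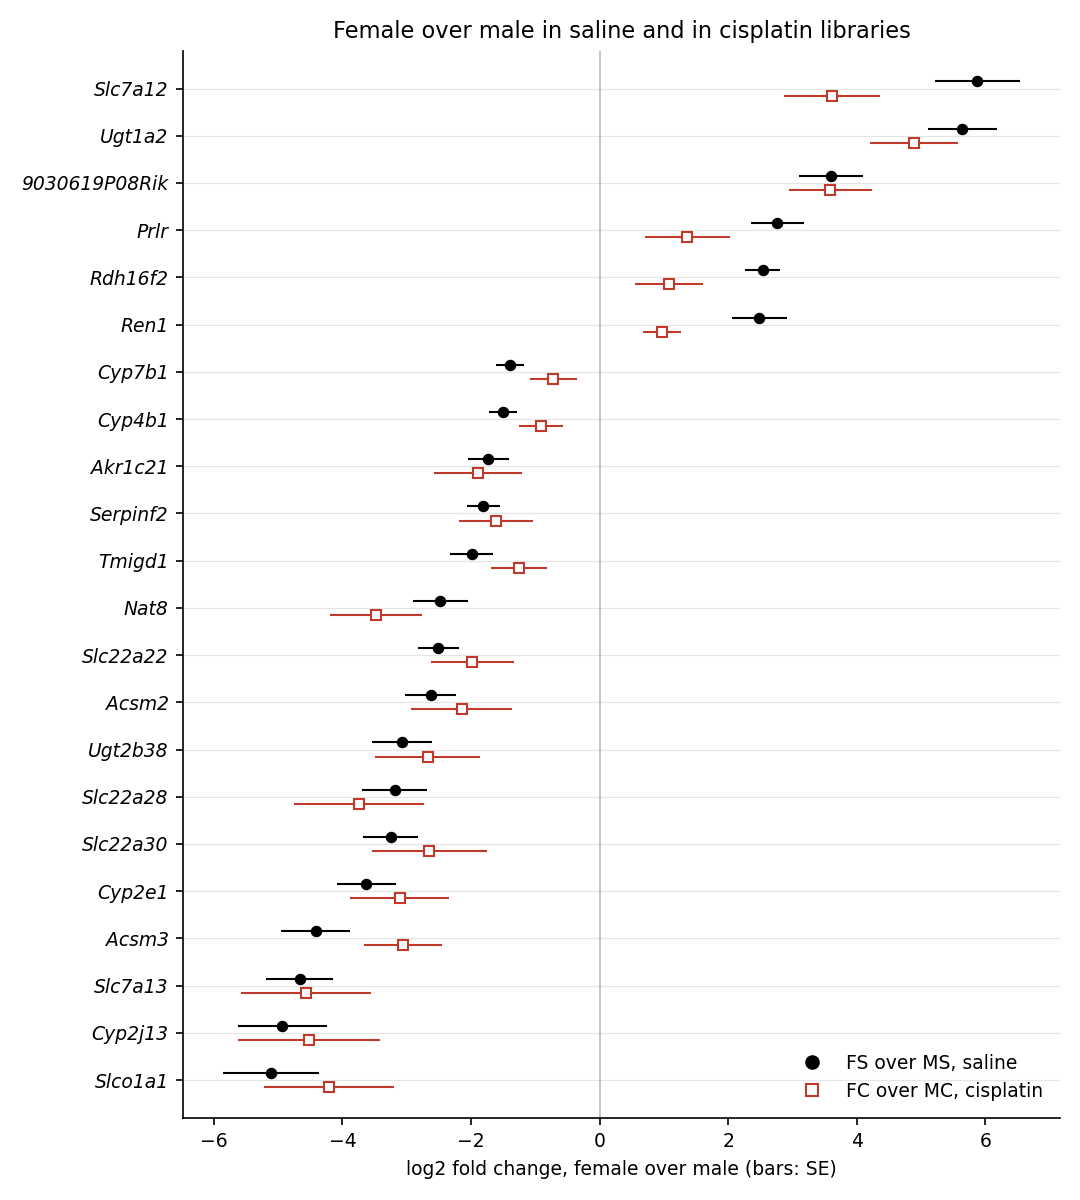
Log2 fold change of females over males for the 22 genes called in saline libraries, in saline (FS over MS, filled circles) and in cisplatin libraries (FC over MC, open squares), with bars for the SE. Every pair has the same sign, and the bars are wider for cisplatin in most genes.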

How the data were processed

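Poly(A) RNA of the inner medulla was sequenced, and the values used are the raw counts per gene that the authors deposited. Trimming with Trim Galore 0.6.7, counting with featureCounts of Subread 2.0.1 and the build mm10 are named per the submitters' processing notes, which also name DESeq2 1.28.1. The sources used here name no aligner and do not say whether reads were counted by strand. All columns matched a library. Counts were analysed in R 4.3.3 with edgeR 4.0.16 (TMM, quasi-likelihood test) and limma 3.58.1, with DESeq2 1.42.0 as an alternative. Identifiers with at least 10 counts in at least 6 of 13 saline libraries were tested, and p-values were adjusted by the Benjamini-Hochberg method over 16961 identifiers on any chromosome. Scores are means of log2 CPM with a prior count of 2 and entered the model as a covariate beside sex. The scripts were tested on simulated data. Named genes are called genes without overlap and with a mean of at least 1 CPM, up to 12 in each direction, Lrp2, Slc34a1, up to 4 called members of each list or the 2 most abundant where none passed, and the 6 smallest slope p-values outside the proximal tubule lists, of which 1 gene is not reported here. The members and lists were chosen with earlier results of these data known. Replicate libraries differed by more than sampling noise. Alternatives were other normalization, filters, tools, covariates and left-out libraries.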

Additional observations from a re-analysis of the deposited data

Results flagged for a closer look

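A library stood apart from the others of its group in 10 of 118 groups of values examined by Dixon's test, and chance sets apart about 1 in 20. FS7 was the highest FS library for Slc7a13 (2.4 CPM, next 1.11), Acsm3 (2.03 CPM, next 0.69), Cyp2j13 (0.29 CPM, next 0.118) and Slco1a1 (0.415 CPM, next 0.167), all of them genes lower in FS. FS4 was the highest FS library for Prlr (9.93 CPM, next 3.61). MS3 was the highest MS library for Cyp7b1 (35.6 CPM). FS5 was the lowest FS library for the interferon-induced gene Ifit3 (120.0 CPM). MS2 was the lowest MS library for the kallikrein gene Klk1 (15.5 CPM, next 56.3) and for the thick ascending limb score (7.45, next 8.56). MS6 was the highest MS library for Cyp4a14 (3.17 CPM, next 1.19).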

How the results depend on the processing

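Of 635 values of the 22 called genes under the alternatives, 578 kept their call, 57 no longer passed and 0 turned round. The 22 calls (6 higher, 16 lower in FS) became 62 (26 and 36) in DESeq2 and 44 (14 and 30) with no count minimum. They became 52 (23 and 29) with the proximal tubule score and 107 (10 and 97) with Lrp2 as covariate. With Slc34a1 as covariate 22 were higher and 10 lower. With the mean of both segment scores as 1 covariate they became 45, of them 29 higher. Chosen after seeing the data, they became 34 (29 lower) without FS4 and MS5, 14 (8 lower) without FS5, FS6 and FS7 and 58 (21 and 37) with a score lacking Acsm2. With 1 library left out they ran from 19 to 30, with 5 to 12 higher and 14 to 24 lower. The 135 slope calls became 88 without FS5, FS6 and FS7, 50 on Slc34a1 and 1331 on the mean of both segment scores. They became 1 in FS alone, 51 in MS alone and 76 to 141 with 1 library left out. The 52 calls with the score became 107 with Lrp2 and 32 with Slc34a1, and 44 to 59 with 1 library left out. The 17 calls between FC and MC became 69 in DESeq2, 10 at a mean of at least 1 CPM and 4 to 27 with 1 library left out. The cause was not tested.

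The replicate number as a block gave 12 calls (8 lower), 34 slope calls, 27 calls with the score and 1 call between FC and MC. Same-numbered FS and MS libraries did not pair: their deviations correlated at 0.075, -0.189, -0.019, 0.178, 0.029 and -0.01.

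Aqp2 (-0.03) turned round to 0.02 without FS4, 0.03 without FS5, 0.02 without FS7, 0.03 without MS2, 0.01 without MS6 and 0.10 with Lrp2 as covariate (leave-one-out range -0.12 to 0.025). It passed in none of these. Genes with few counts in 1 sex carry fold changes of low precision.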
